A study of Mus musculus with 3 samples.

Results

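H3K4me3, trimethylation of lysine 4 on histone H3, marked 16735 regions in mouse suprabasal keratinocytes, and 5509 of them (32.9%) were promoter-sized peaks of 1 gene without DLX3. They were chosen by the peak lists themselves: a width under 4500 bp, no base shared with any of the 18087 DLX3 peaks, and, with 1 kb added on each side, an end of exactly 1 protein-coding gene in the RefSeq table of GRCm38.p6, the assembly of mm10. Of all 9114 narrow single-gene peaks, 5509 (60.4%) were without DLX3 and 3605 carried a DLX3 peak. The peaks without DLX3 belonged to 5410 of 21900 protein-coding genes (24.7%). Since width, DLX3 overlap and gene ends chose the peaks, these shares are a description, and what follows reads each gene group against the 60.4%.

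The material was suprabasal keratinocytes, which have left the basal layer and differentiate toward the skin surface, of wild type BALB/c mice, with no treatment named. The age label reads adult while the series text speaks of neonatal epidermis, and which of these holds was not settled. Chromatin was immunoprecipitated with an antibody to DLX3, with an antibody to H3K4me3 or with IgG, and sequenced as 1 library per antibody. The IgG library was not analysed here, there is no replicate spread and no test between groups, and the intervals given are 95% Wilson intervals that cover counting error only.

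H3K4me3 is laid down around the starts of genes and is known best from promoters in use, although CpG-rich promoters of developmental genes can carry it without transcription, as described in embryonic stem cells. DLX3 is a homeodomain transcription factor needed in differentiating epidermis, hair and teeth, and it can act at promoters and at distant enhancers. A marked promoter without a DLX3 peak is therefore one where the mark was called and binding of this factor was not. RNA was not analysed here, and a peak is not a level of expression.

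The promoters below show which kinds of gene the set holds. Each run is the 250 bases upstream of a gene start inside an H3K4me3 peak without DLX3, 5′ to 3′ on the strand of the gene, from RefSeq promoter windows on GRCm38.p6, which is C57BL/6J sequence while the mice were BALB/c. Capitals mark matches, on either strand, to 12 short motifs: NRF1 (CGCATGCGC), ETS (CCGGAAG), YY1 (AAGATGGCG), ZBTB33 (CTCGCGAG), SP (GGGCGG), the CCAAT box (CCAAT), CRE (TGACGTCA), the E-box (CACGTG), AP-1 (TGANTCA), the TATA box (TATAAA), the homeodomain core (TAATT) and GRHL (AACCNGTT). The first 6 are the highest-scoring eligible peaks of the mitochondrial ribosome, respiratory chain, zinc finger, DNA repair, centrosome and tRNA modification lists, and the last 3, from the developmental, ion channel and cytosolic ribosome lists, were added after the values were seen.
Mrpl52: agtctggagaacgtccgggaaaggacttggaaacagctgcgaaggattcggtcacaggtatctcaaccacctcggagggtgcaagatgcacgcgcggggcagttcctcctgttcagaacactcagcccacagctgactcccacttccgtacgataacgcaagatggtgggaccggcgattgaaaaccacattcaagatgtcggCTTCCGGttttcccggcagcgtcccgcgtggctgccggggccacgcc
Atp5g3: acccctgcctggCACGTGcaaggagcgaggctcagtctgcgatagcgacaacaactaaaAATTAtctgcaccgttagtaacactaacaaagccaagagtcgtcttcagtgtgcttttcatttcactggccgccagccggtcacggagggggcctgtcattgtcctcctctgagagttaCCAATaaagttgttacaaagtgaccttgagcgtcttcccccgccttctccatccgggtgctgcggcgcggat
Zfp335: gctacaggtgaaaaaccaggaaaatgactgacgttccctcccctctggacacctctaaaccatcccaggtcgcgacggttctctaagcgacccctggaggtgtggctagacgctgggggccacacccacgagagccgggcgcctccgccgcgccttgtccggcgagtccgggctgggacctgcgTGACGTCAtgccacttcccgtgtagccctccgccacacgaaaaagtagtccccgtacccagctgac
Topbp1: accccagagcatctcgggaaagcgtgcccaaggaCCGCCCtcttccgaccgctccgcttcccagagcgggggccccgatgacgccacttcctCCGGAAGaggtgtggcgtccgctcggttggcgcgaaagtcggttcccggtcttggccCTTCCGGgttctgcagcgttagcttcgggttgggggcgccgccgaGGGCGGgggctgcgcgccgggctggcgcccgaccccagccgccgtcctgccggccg
Cep97: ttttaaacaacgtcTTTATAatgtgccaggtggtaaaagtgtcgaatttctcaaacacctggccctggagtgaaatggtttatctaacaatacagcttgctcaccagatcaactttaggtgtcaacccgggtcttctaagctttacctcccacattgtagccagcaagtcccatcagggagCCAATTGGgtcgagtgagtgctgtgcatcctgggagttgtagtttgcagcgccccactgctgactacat
Urm1: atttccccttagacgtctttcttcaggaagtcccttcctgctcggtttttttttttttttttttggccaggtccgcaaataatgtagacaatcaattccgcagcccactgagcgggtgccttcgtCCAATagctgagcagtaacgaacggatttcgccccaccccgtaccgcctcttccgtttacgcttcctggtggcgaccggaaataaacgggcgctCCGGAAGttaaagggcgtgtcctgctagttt
Foxk2: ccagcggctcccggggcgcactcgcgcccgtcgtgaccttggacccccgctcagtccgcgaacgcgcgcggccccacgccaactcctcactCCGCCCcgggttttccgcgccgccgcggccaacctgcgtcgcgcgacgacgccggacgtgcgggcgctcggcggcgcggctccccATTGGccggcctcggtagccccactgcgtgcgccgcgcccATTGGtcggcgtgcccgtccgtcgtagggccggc
Kcnmb4: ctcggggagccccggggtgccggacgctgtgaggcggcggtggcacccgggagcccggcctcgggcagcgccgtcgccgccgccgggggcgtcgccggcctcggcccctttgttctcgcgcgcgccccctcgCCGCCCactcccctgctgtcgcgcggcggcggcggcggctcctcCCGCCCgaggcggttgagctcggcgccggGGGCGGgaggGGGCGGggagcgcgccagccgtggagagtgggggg
Rpl13a: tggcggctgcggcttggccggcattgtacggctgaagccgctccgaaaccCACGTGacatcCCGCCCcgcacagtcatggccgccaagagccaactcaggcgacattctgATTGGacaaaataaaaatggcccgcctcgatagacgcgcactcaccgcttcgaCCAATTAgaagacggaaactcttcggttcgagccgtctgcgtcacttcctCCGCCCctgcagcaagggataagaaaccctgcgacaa

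These runs lie at chr14:54426659-54426908 (plus strand) for Mrpl52, a protein of the large mitochondrial ribosomal subunit, at chr2:73911327-73911576 (minus) for Atp5g3, a subunit of the ATP synthase membrane ring, and at chr2:164911751-164912000 (minus) for Zfp335, a zinc finger regulator. Topbp1, a scaffold of the DNA damage response, lies at chr9:103305077-103305326 (plus), Cep97, a centriole protein that restrains cilium growth, at chr16:55934849-55935098 (minus), and Urm1, a ubiquitin-like protein that serves tRNA thiolation, at chr2:29827139-29827388 (plus). Foxk2, a forkhead factor, lies at chr11:121259737-121259986 (plus), Kcnmb4, a regulatory subunit of a calcium-activated potassium channel, at chr10:116473524-116473773 (minus), and Rpl13a, a protein of the large cytosolic ribosomal subunit, at chr7:45128746-45128995 (minus). CpG content ran from 5 CpG dinucleotides in the Cep97 run to 48 in the Foxk2 run. The homeodomain core, the kind of short AT-rich word that homeodomain proteins can bind, matched once in the Atp5g3 run and once in the Rpl13a run.

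Matches of single motifs were common in promoters at large. Among all 21263 promoter windows of 300 bases in the table, the SP motif was present in 46.2%, the CCAAT box in 38.2%, the homeodomain core in 23.5%, the TATA box in 12.6% and the ETS motif in 11.6%. The E-box was present in 7.84%, AP-1 in 6.99%, NRF1 in 2.35%, CRE in 2.23%, GRHL in 1.95%, YY1 in 1.83% and ZBTB33 in 1.24%. The CCAAT and homeodomain matches in the Rpl13a run overlap by a few bases, and the pair of CCAAT matches in the Cep97 run overlap each other. A window was found for 4280 of the 5509 peaks (77.7%), under the 80% needed, so sequence content was not compared between all peaks without and with DLX3.

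Peaks without DLX3 were weaker and narrower than single-gene peaks with it. Their H3K4me3 score, the value the authors gave each peak, had a median of 676 (interquartile range 269 to 1278), against 1495 (1009 to 2123) for peaks with DLX3. Their width had a median of 1969 bp (1535 to 2516), against 2484 bp (2003 to 3110). Scores run up to a near-ceiling at 3100, which 85 peaks without DLX3 (1.54%) and 266 with DLX3 (7.38%) reached. The distributions overlap over the whole range, from 50.04 to 3233.06 for peaks without DLX3.

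**Figure D1:**
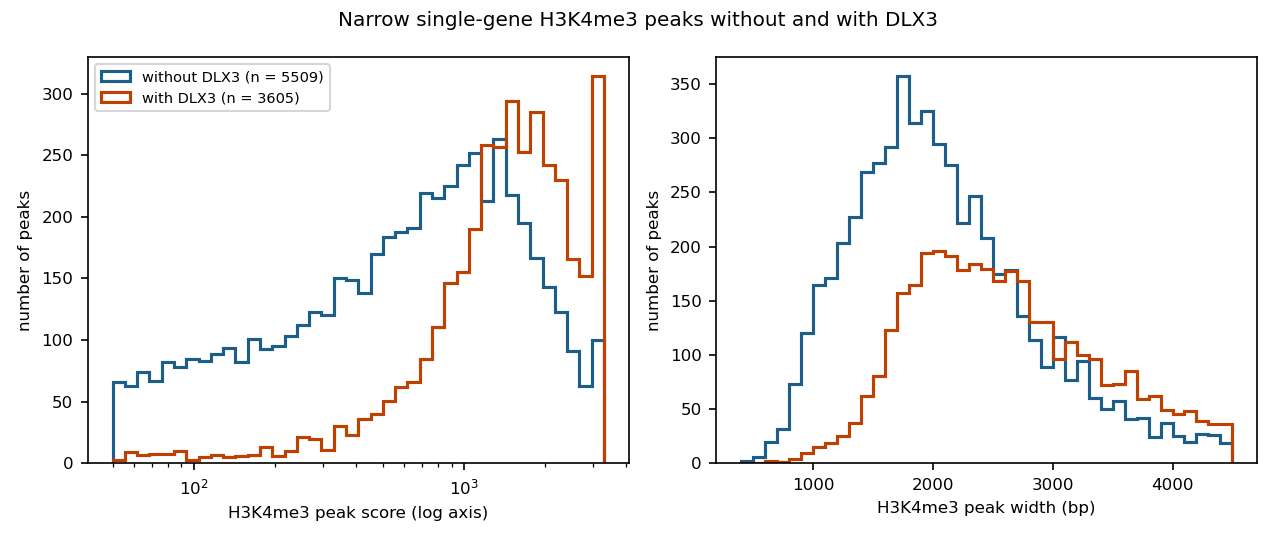
Number of narrow single-gene H3K4me3 peaks by score (left, log axis) and by width in bp (right), for the 5509 peaks without DLX3 and the 3605 with DLX3, drawn as step histograms. The peaks without DLX3 extend to low scores and small widths, with medians of 676 and 1969 bp, against 1495 and 2484 bp with DLX3.

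Across 10 equal groups of all 9114 peaks ordered by score, the share without DLX3 fell step by step. It was 92.3% (90.4 to 93.9) in the weakest group, with a median score of 91.7, then 62.1% in the fifth and 28.4% (25.6 to 31.4) in the strongest, with a median score of 2914. Ordered by width, the share was 91.3% (89.3 to 93.0) in the narrowest group, with a median of 1106 bp, and 38.2% (35.1 to 41.4) in the widest, with a median of 3830 bp. Score and width thus moved with DLX3, and each gene list below is also set beside the share among all single-gene peaks of the same width and score, computed over 5 width classes crossed with 5 score classes.

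**Figure D2:**
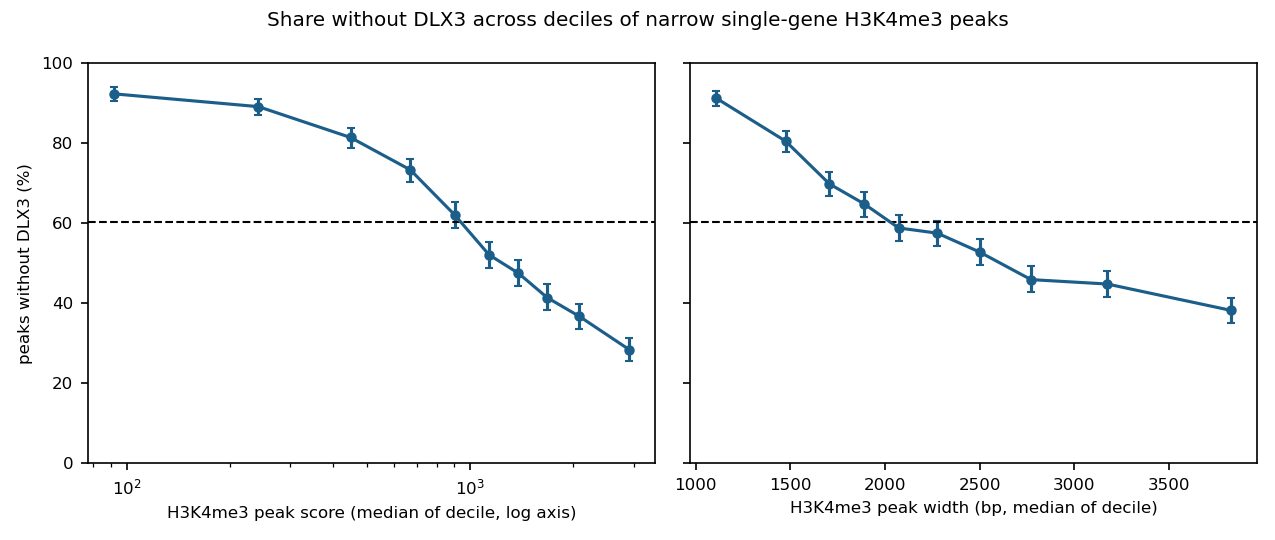
Percent of narrow single-gene H3K4me3 peaks without DLX3 in 10 groups of equal size ordered by score (left, log axis) or by width in bp (right), placed at the median of each group. Bars are 95% Wilson intervals and the dashed line is the 60.4% of all 9114 peaks. The share is 92.3% in the weakest and 28.4% in the strongest score group.

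The width limit fell inside a continuous range. Just under it stood Igf2bp2, an RNA-binding protein, at 4497 bp with a score of 2921.06, Sgpp1, a sphingosine-1-phosphate phosphatase, at 4495 bp with 3111.45, and Abtb2 at 4491 bp with 2241.55. Just over it were Ap3m2, an adaptor subunit of vesicle traffic, at 4515 bp with 1989.11, Ebf1, a transcription factor of B cell development, at 4522 bp with 338.14, and E2f3, a cell cycle transcription factor, at 4522 bp with 3100.

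The groups most often without DLX3 were developmental factors, developmental pathway genes, adhesion and matrix genes, ion channels and synaptic proteins, and G protein-coupled receptors. Transcription factors of the homeobox, Sox, Fox, Tbx and related families lacked DLX3 at 188 of 207 single-gene peaks (90.8%, 86.1 to 94.0), against 75.4% for peaks of the same width and score. G protein-coupled receptors lacked it at 93 of 104 (89.4%, 82.0 to 94.0), against 76.7%. Ion channels and synaptic proteins lacked it at 149 of 168 (88.7%, 83.0 to 92.6), against 78.2%. Genes of adhesion, extracellular matrix and guidance lacked it at 151 of 175 (86.3%, 80.4 to 90.6), against 73.6%. Ligands, receptors and antagonists of the Wnt, Hedgehog, BMP, FGF and Notch pathways lacked it at 84 of 98 (85.7%, 77.4 to 91.3), against 66.6%. In these 5 lists the interval lay above the matched share, as it did for the zinc finger genes and the cytosolic ribosome described further on. The intervals take peaks as independent and are not adjusted for the number of lists. Some genes had several peaks, such as 188 peaks of 176 developmental factor genes.

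**Figure D3:**
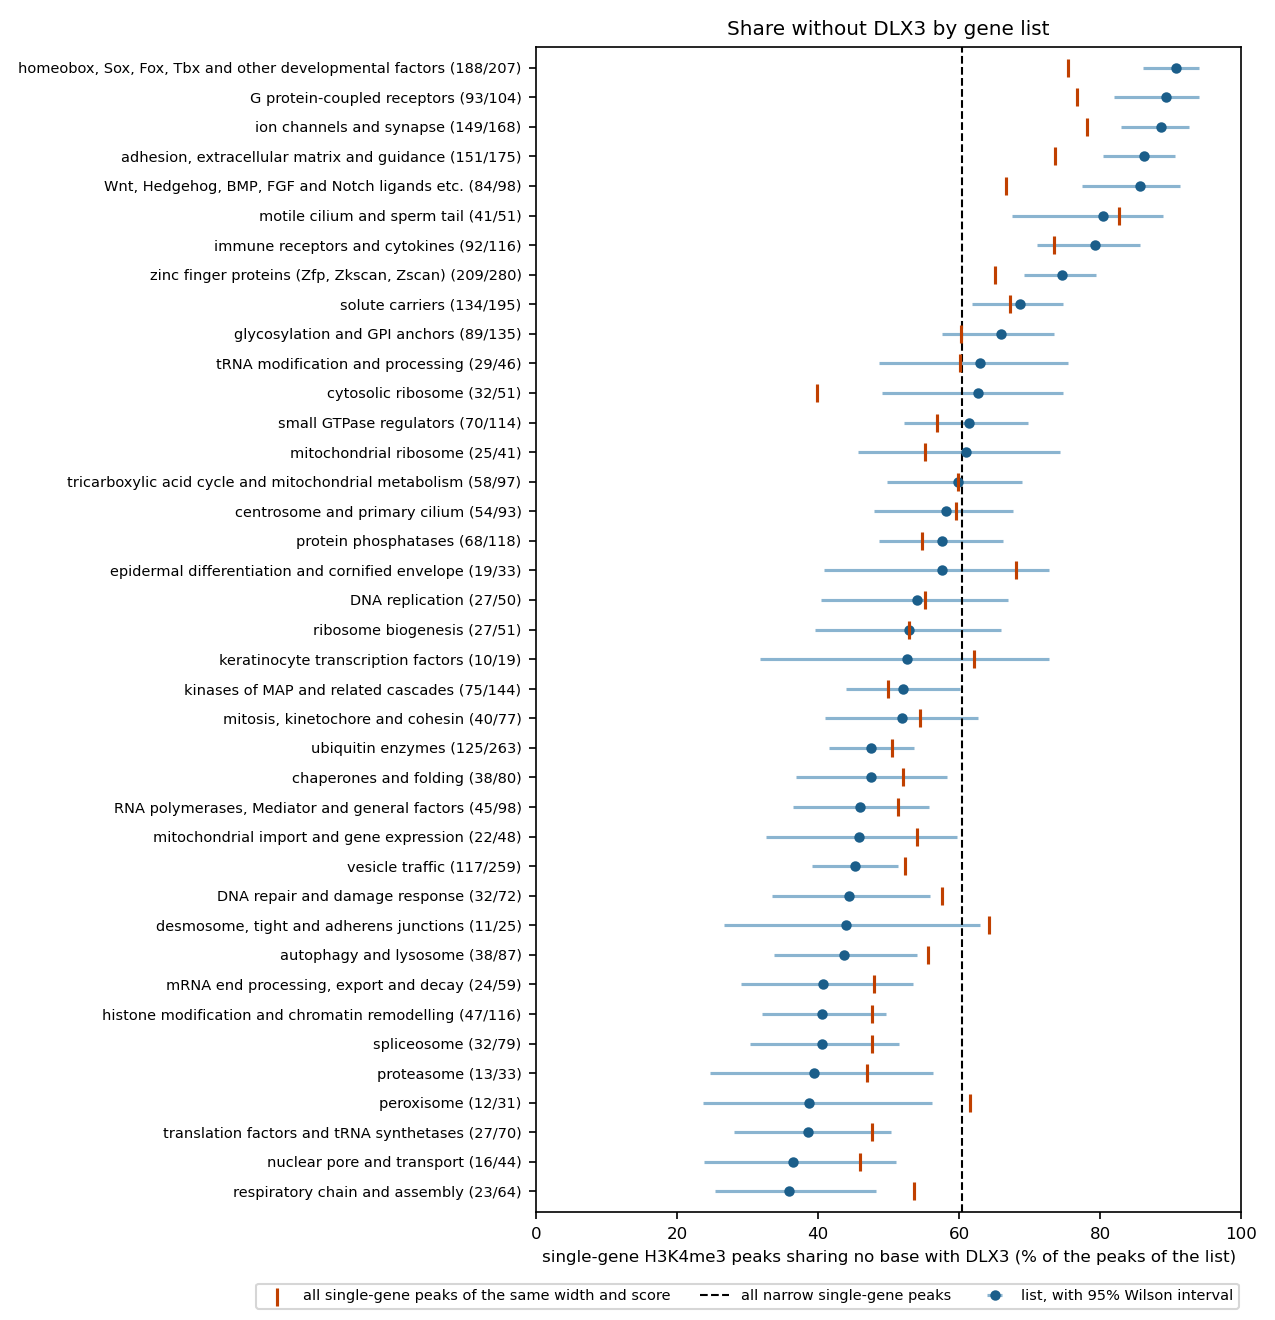
Percent of narrow single-gene H3K4me3 peaks without DLX3 in 39 function lists, with counts beside the names. Points are the lists with 95% Wilson intervals, the short vertical marks are all single-gene peaks of the same width and score, and the dashed line is the 60.4% of all peaks. Developmental factors are at the top with 90.8% and the respiratory chain at the bottom with 35.9%.

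The developmental factors were mostly weak peaks. Their median score was 254, and, with all 5509 peaks cut into 4 equal score classes, 98 of the 188 fell in the weakest class and 16 in the strongest. Without DLX3 stood 24 of 27 peaks of the Hox clusters, which set position along the body axis, 12 of 12 of Nkx genes and 9 of 9 of the T-box genes. Sox genes, regulators of cell fate, had 13 of 14, and forkhead genes 21 of 25 (84.0%, 65.3 to 93.6). Peaks of the same width and score lacked DLX3 in 78% for the Hox genes, 88.4% for Nkx, 80% for T-box, 69.7% for Sox and 65.3% for forkhead genes. Each of these shares lay inside the family's interval or, for the forkhead genes, at its lower end. The Hox exceptions were Hoxa4, Hoxb1 and Hoxd3, the Sox exception was Sox12, and the forkhead exceptions were Foxk1, Foxn2, Foxo6 and Foxq1. The strongest peaks of the list were Pbx3, a partner of Hox proteins, with 3100, Foxk2 with 2962.98 and Sox13 with 2854.47. These are levels near the top of the scale, whereas the Nkx peaks had a median score of 93.6. The families were split off after the values were seen.

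In the pathway list, the FGF ligands were without DLX3 at 12 of 12 peaks, with a median score of 213, and the FGF receptors at 3 of 3. Among those receptors Fgfr3 scored 3100 and Fgfr1 2952.59, and Lrp6, a co-receptor of Wnt signalling, scored 3030.31. Wnt ligands lacked DLX3 at 11 of 13 peaks, with Wnt4 and Wnt7b the exceptions. BMP and GDF ligands lacked it at 10 of 10. Notch receptors and ligands lacked it at 4 of 5, with Notch4 the exception, and Frizzled receptors at 1 of 3. Peaks of the same width and score lacked DLX3 in 81.7% for the FGF ligands, 51.3% for the FGF receptors, 71.6% for Wnt ligands, 77.8% for BMP and GDF ligands, 58.9% for the Notch family and 51.8% for Frizzled receptors, each inside the family's interval. The median score of the list was 526, so it held more strong peaks than the developmental factors.

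Matrix and adhesion genes were mostly without DLX3 in each family counted, and differences between families were not tested. Collagens, the fibrous proteins of the matrix, lacked DLX3 at all 25 peaks counted, with a median score of 227 (86.7 to 100%), against 83.0% for peaks of the same width and score. Protocadherins lacked it at 10 of 10, cadherins at 6 of 6, semaphorins at 12 of 14 and laminins at 6 of 7. Integrins lacked it at 13 of 16, and the exceptions were Itga6, Itgb1 and Itgb4, subunits that attach basal keratinocytes to the basement membrane. Eph receptors and ephrins, guidance molecules of cell contact, lacked it at 7 of 10 (70%, 39.7 to 89.2), with Efna4, Epha1 and Ephb6 the exceptions. For peaks of the same width and score the shares were 75.2% for protocadherins, 71.9% for cadherins, 68.8% for semaphorins, 71.9% for laminins, 69.6% for integrins and 62.9% for the Eph group, each inside the family's interval. Highest in the list were Pcdhgc3, a clustered protocadherin, with 2614.95, Ltbp1, a protein that holds latent TGF-beta, with 2436.93, and Ephb2, a receptor of ephrins, with 2339.77.

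Markers of other cell types of the skin fell partly in the same lists. Of 18 fibroblast markers 14 were marked by H3K4me3, 12 of them as single-gene peaks without DLX3, with scores of 75.1 to 1128, and Col3a1, Lum, Mfap5 and Pdgfrb had none within 1 kb of an end. Of 12 melanocyte markers 6 were marked, 5 of them in this way with scores of 53.2 to 1083, while Dct, Mlana, Oca2, Slc45a2, Tyr and Tyrp1 had no peak. Of 16 endothelial markers 5 were marked, all without DLX3 with scores of 98.0 to 470, and 11 had none, Pecam1 and Cdh5 among them. Of 20 immune markers 3 were marked and 2, H2-Ab1 and Coro1a, were without DLX3, with 773.58 and 183.56, while Ptprc, Cd3e and 15 others had none. At the same width and score 78.5%, 80.8%, 85.9% and 82.4% of peaks lacked DLX3 for the fibroblast, melanocyte, endothelial and immune markers in that order, each inside the interval of its list. The part of such cells in the matrix and developmental counts was not tested.

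Neuronal and receptor genes had low scores too. Potassium channels lacked DLX3 at 49 of 52 peaks (94.2%, 84.4 to 98.0), against 80.8% at the same width and score, with Kcng2, Kcnh2 and Kcnn1 the exceptions. Glutamate receptors lacked it at 15 of 15 against 83.3%, sodium channels at 5 of 5 against 84.5%, adhesion-type G protein-coupled receptors at 7 of 7 against 67.2%, and calcium channels at 11 of 13 against 74.9%. GABA receptors lacked it at 7 of 8 (87.5%) against 86.2%, and synaptotagmins, calcium sensors of vesicle release, at 8 of 10 (80%) against 83.0%. For these 6 families the matched share lay inside the interval. The channel and synapse list had a median score of 285, and 72 of its 149 peaks lay in the weakest score class. The highest scores were those of Kcnmb4 with 2411.8, P2ry1, a receptor of extracellular ADP, with 2128.36, and Rims2, a scaffold of synaptic release, with 2080.87. Of the 1501 genes for olfactory, vomeronasal and taste receptors, 3 were marked by H3K4me3 and 0 had a single-gene narrow peak.

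Immune genes and motile cilia also stood above the 60.4%, but not clearly above peaks of like strength. Immune receptors and cytokines lacked DLX3 at 92 of 116 peaks (79.3%, 71.1 to 85.7), against 73.4% at the same width and score. Highest were Irf2, a regulator of interferon responses, with 3100, Il1rl2, the receptor of interleukin 36, with 2250.59, and Cd81, a tetraspanin that is not confined to immune cells, with 2212.3. Genes of motile cilia and the sperm tail lacked DLX3 at 41 of 51 (80.4%, 67.5 to 89), against 82.7%, so that the sign of their difference turned once strength was matched. Their median score was 165, the lowest of the 39 lists, and 28 of the 41 lay in the weakest score class.

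Zinc finger genes were the largest group by count. The Zfp, Zkscan and Zscan genes, many of which encode DNA-binding repressors, lacked DLX3 at 209 of 280 peaks (74.6%, 69.2 to 79.4), against 65.1% at the same width and score. Their median score of 704 was close to the 676 of all peaks without DLX3, and they spread over the 4 classes from weakest to strongest as 38, 61, 67 and 43. Zfp335 scored 3184.55, and Zfp407 and Zfp827 both 3100. DLX3 lay over the gene or within 5 kb of it for 27 of the 209 (12.9%), against 1644 of all 5509 (29.8%). The median span of the zinc finger genes was 18 kb, against 26.8 kb over all 5509.

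Genes of the cytosolic ribosome combined strong peaks with a share near that of all peaks. Their peaks were strong, with a median score of 1837, and 25 of 32 lay in the strongest score class. They lacked DLX3 at 32 of 51 peaks (62.7%, 49.0 to 74.7), near the 60.4% of all peaks, but peaks of the same width and score lacked it in 39.9%, below the interval. Large-subunit proteins had 19 of 30 and small-subunit proteins 13 of 21, at 63.3% (45.5 to 78.1) and 61.9% (40.9 to 79.2), against 38.5% and 41.8% at the same width and score, so the matched share lay below the interval for the large subunit and inside it for the small one. Rpl13a had 3100, Rpl13 2761.89 and Rps14 2571.92. For Rpl13 and Rpl13a the nearest DLX3 peak was 743 bp and 1505 bp away, against a median of 23.1 kb for the list.

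The respiratory chain had DLX3 more often than peaks of like strength. The respiratory chain and its assembly factors lacked DLX3 at 23 of 64 peaks (35.9%, 25.3 to 48.2), against 53.6% at the same width and score. Complex I, the entry point of electrons from NADH, was without it at 5 of 16, against 49.1%, and ATP synthase at 3 of 9, against 50.7%, both inside the interval. Among those without DLX3, Cyc1 and Uqcrc2 of complex III scored 2695.33 and 1799.4, and Atp5g3 1791.35. The mitochondrial ribosome, in contrast, lacked DLX3 at 25 of 41 (61%, 45.7 to 74.3), against 55.1%, led by Mrpl52 with 1780.1, Mrpl20 with 1631.09 and Mrps31 with 1521.63. The intervals of the respiratory chain and the mitochondrial ribosome overlap, and their difference was not tested.

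Peroxisomal genes lacked DLX3 at 12 of 31 peaks (38.7%, 23.7 to 56.2), against 61.6% at the same width and score. The 12 included Pex6, an import motor, with 2139.26, Pxmp4 with 1657.47, and Cat, which encodes catalase, with 888.8. Autophagy and lysosome genes lacked it at 38 of 87 (43.7%, 33.7 to 54.1), against 55.6%, led by Atp6v0c of the proton pump with 2537.67 and Sqstm1, an autophagy receptor, with 2134.59. DNA repair genes lacked it at 32 of 72 (44.4%, 33.5 to 55.9), against 57.6%, led by Ercc3, a helicase of nucleotide excision repair, with 2261.52. Vesicle traffic genes lacked it at 117 of 259 (45.2%, 39.2 to 51.3), against 52.3%, led by Snx9, a sorting nexin, with 3145.41. For these 4 lists and the respiratory chain, the interval lay below the matched share, as it did for the junction genes described further on.

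Several groups lay under the 60.4% but not clearly under peaks of like strength. Nuclear pore and transport genes lacked DLX3 at 16 of 44 (36.4%), translation factors and tRNA synthetases at 27 of 70 (38.6%), the proteasome at 13 of 33 (39.4%), the spliceosome at 32 of 79 (40.5%) and histone modifiers at 47 of 116 (40.5%). At the same width and score the shares were 45.9%, 47.6%, 46.9%, 47.6% and 47.7% in that order, and each lay inside the interval of its list. Eif3b and Eif4g2, which act in translation initiation, scored 3100 and 2816.99, Psme4 and Psme3, activators of the proteasome, 2594.85 and 2578.68, and Prpf38b, a splicing factor, 3202.77. Among the chromatin genes Phf21a, Arid4a and Kat2b all stood at 3100. Cdk9, the kinase that releases paused RNA polymerase, headed its list with 3204.62.

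A middle band lay within a few points of the 60.4%. Glycosylation genes lacked DLX3 at 89 of 135 (65.9%), tRNA modification at 29 of 46 (63%), small GTPase regulators at 70 of 114 (61.4%), mitochondrial metabolism at 58 of 97 (59.8%) and the centrosome and primary cilium at 54 of 93 (58.1%). Glce, an enzyme of heparan sulfate synthesis, had 3206.32, the highest score named here. Dlat, a subunit of pyruvate dehydrogenase, had 2442.76, and Cep350, a centrosome protein, 2855.95. Mitotic genes were lower at 40 of 77 (51.9%, 41 to 62.7), and none of those 40 peaks lay in the weakest score class. For peaks of the same width and score the shares were 60.3%, 60.1%, 56.9%, 59.9%, 59.5% and 54.5% for these 6 lists in that order, each inside the interval.

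The remaining function lists also held the matched share inside their intervals. Solute carriers lacked DLX3 at 134 of 195 (68.7%) against 67.2%, protein phosphatases at 68 of 118 (57.6%) against 54.8%, DNA replication at 27 of 50 (54.0%) against 55.1%, ribosome biogenesis at 27 of 51 (52.9%) against 52.9%, and kinases at 75 of 144 (52.1%) against 49.9%. Ubiquitin enzymes lacked it at 125 of 263 (47.5%) against 50.5%, and chaperones at 38 of 80 (47.5%) against 52.1%. RNA polymerases with their general factors lacked it at 45 of 98 (45.9%) against 51.4%, mitochondrial import and gene expression at 22 of 48 (45.8%) against 54.0%, and mRNA end processing at 24 of 59 (40.7%) against 47.9%.

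**Figure D4:**
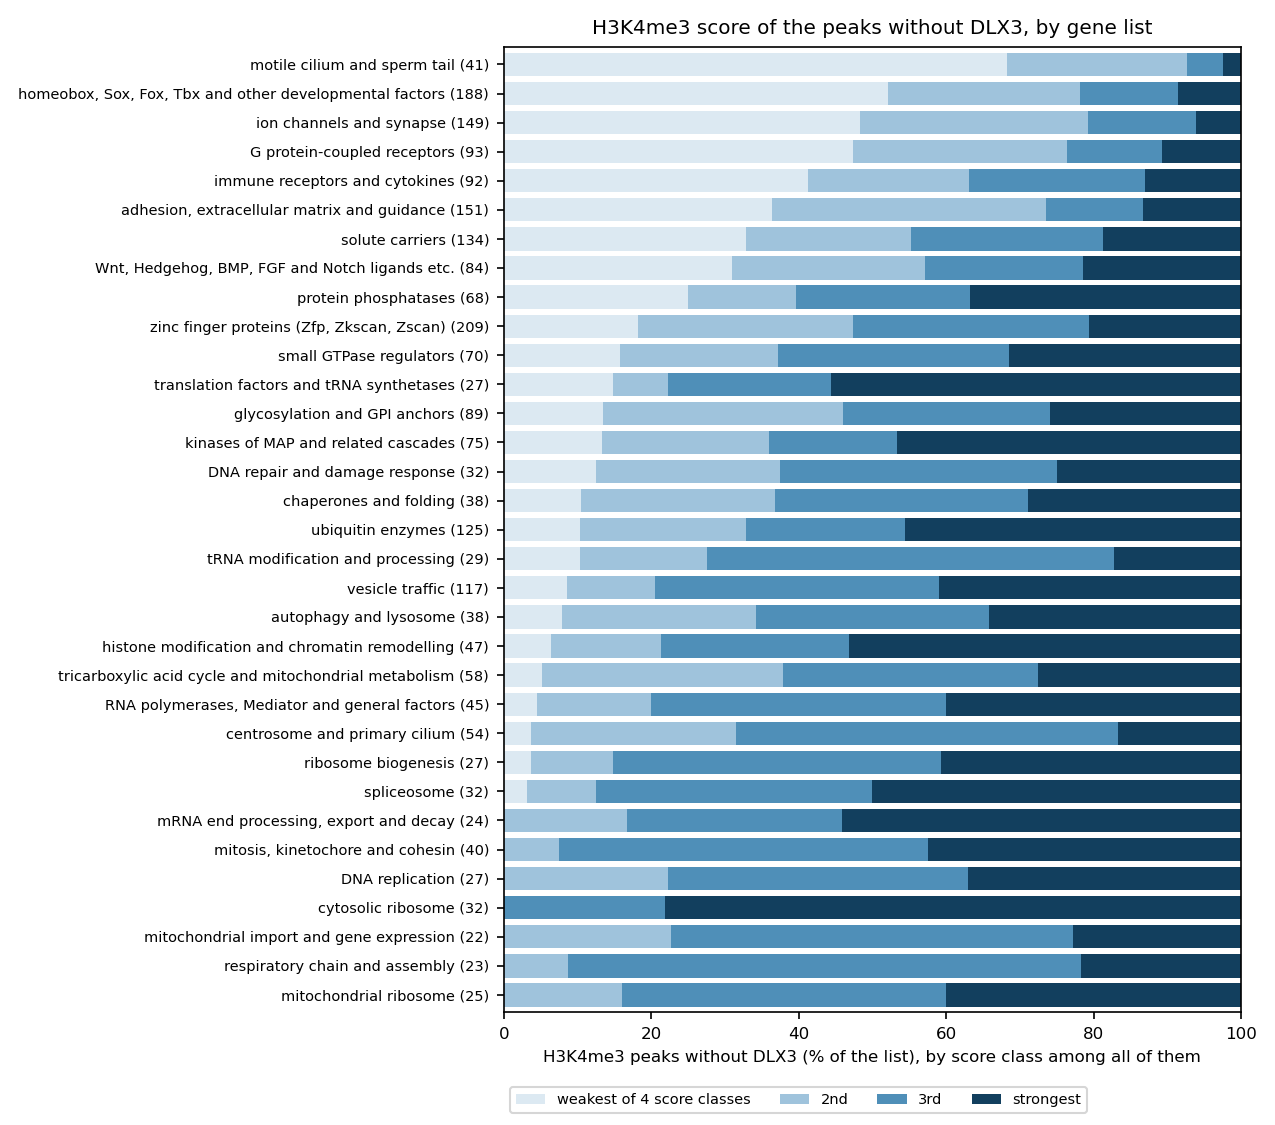
Peaks without DLX3 of each function list with 20 or more of them, split by 4 equal classes of H3K4me3 score among all 5509, in percent of the list. Motile cilium genes (28 of 41) and developmental factors (98 of 188) lie mostly in the weakest class, and cytosolic ribosome genes (25 of 32) in the strongest.

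Genes of the epidermis itself often had DLX3 close by. Epidermal differentiation and cornified envelope genes lacked DLX3 at 19 of 33 peaks (57.6%, 40.8 to 72.8), against 68.1% at the same width and score. Keratinocyte transcription factors lacked it at 10 of 19 (52.6%, 31.7 to 72.7), against 62.1%. Genes of desmosomes and of tight and adherens junctions lacked it at 11 of 25 (44.0%, 26.7 to 62.9), against 64.3%, which lies above the interval. The intervals of the differentiation and transcription factor lists include their matched shares, and all 3 include the 60.4% of all peaks. Marked genes numbered 46 of 53 for the transcription factors, 39 of 69 for differentiation and 39 of 40 for junctions. Broad peaks and peaks shared with other genes are outside the peak counts, so these shares do not cover all marked genes of a list. A DLX3 peak lay over the gene or within 5 kb of it for 11 of the 11 junction peaks, 9 of the 10 transcription factor peaks and 9 of the 19 differentiation peaks, against 1644 of all 5509 (29.8%). Median gene spans were 32.5 kb, 35.4 kb and 11 kb in that order, against 26.8 kb over all 5509.

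Among the differentiation genes, Krt1, the suprabasal partner of keratin 10, had its peak at chr15:101844995-101846671 with a score of 377.61 and a width of 1677 bp, and the nearest DLX3 peak was 42038 bp away. No gene start was available for Krt1, so this peak was not shown to lie at its promoter. Ivl, which encodes involucrin of the cornified envelope, had a weak peak of 76.82 at chr3:92571110-92573858, 13232 bp from DLX3. Strong peaks belonged to Lypd3, a surface protein of suprabasal cells, with 3100, Ugcg, the enzyme that makes glucosylceramide, with 2874.21, and Elovl4, an elongase of very long fatty acids, with 2014.66. Krtdap, a secreted protein of differentiating keratinocytes, had 739.46 and a DLX3 peak 1131 bp away. The remaining 13 peaks scored 64.6 to 699.52, and 12 of them belonged to Cst6, Cnfn, Sdr9c7, Krt77, Alox12b, Padi1, Casp14, Crct1, Padi3, Abca12, Csta1 and Cyp4f39. Padi1 and Cyp4f39 each had a further single-gene peak that carried DLX3. For the peaks of Krt77 and Cyp4f39 without DLX3 the gene start lay elsewhere, and for Cst6 and Crct1 no start was available.

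Elsewhere in the keratin and envelope genes, Krt10 and Lor, which encodes loricrin, had single-gene peaks with DLX3, and Krt5, Krt14 and Dlx3 itself had peaks over the width limit with DLX3. Krt2, Flg, which encodes filaggrin, and Trp63, the master regulator of stratified epithelium, had no H3K4me3 peak within 1 kb of either end of their spans. Only the outer ends of a span were searched, so a marked start inside the span would be missed. The counts of marked genes share this limit. Of 23 suprabasal markers 20 were marked, and of 18 basal markers 15, so these counts do not separate the layers. Single-gene peaks without DLX3 were 10 of 16 for suprabasal markers, 5 of 10 for basal markers and 9 of 12 for hair follicle markers, that is 62.5%, 50% and 75%, against 64.5%, 61.5% and 65.3% at the same width and score, each inside the interval. The share of the basal markers turned from below to above that of all peaks when DLX3 peaks were limited to the upper part of their scores and when gene starts alone were used.

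The junction peaks lay nearest to DLX3. Their median distance was 2.53 kb (0.243 to 33.4 kb, n = 11), against 40.6 kb over all 5509 peaks. Ocln, a tight junction membrane protein, scored 2745.69 and Cdh3, which encodes P-cadherin, 1726.33, and Tjp1, a tight junction scaffold, had 752.09 with 7 DLX3 peaks over the gene. Cgn, which encodes cingulin, scored 541.76 and had a DLX3 peak 243 bp from its H3K4me3 peak, and Dsg1b, a desmosomal cadherin, scored 170.86 and had one at 336 bp. The other peaks, of Dsg1a (2 peaks), Cldn3, Tjp3, Marveld3 and Dsg3, scored 127 to 411. Marveld3 had a further single-gene peak with DLX3. The gene start lay inside the peak for Ocln, Cgn, Cldn3 and Tjp3, and elsewhere for Tjp1. No start was available for Cdh3, Dsg1a, Dsg1b, Marveld3 and Dsg3.

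The 10 transcription factor peaks belonged to Satb1, a chromatin organiser of epidermal genes, with 2269.04, the vitamin D receptor Vdr with 1853.69, Prdm1, a transcriptional repressor, with 1232.14, and to Fosl1, Pparg, Gata3, Msx2, Elf3, Ehf and Rarg, with 85.9 to 754. Their nearest DLX3 peaks were 0.453 to 182 kb away, with a median of 7.99 kb. Pparg, a lipid regulator, was the 1 factor with no DLX3 peak over its gene or within 5 kb. Vdr and Rarg each had 5 DLX3 peaks over the gene. Ehf had a further single-gene peak with DLX3. The gene start lay inside the peak for Satb1, Vdr, Pparg and Elf3, and elsewhere for Prdm1, Gata3, Msx2 and Rarg. No start was available for Fosl1 and Ehf, so these peaks are not all shown to be promoters.

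**Figure D5:**
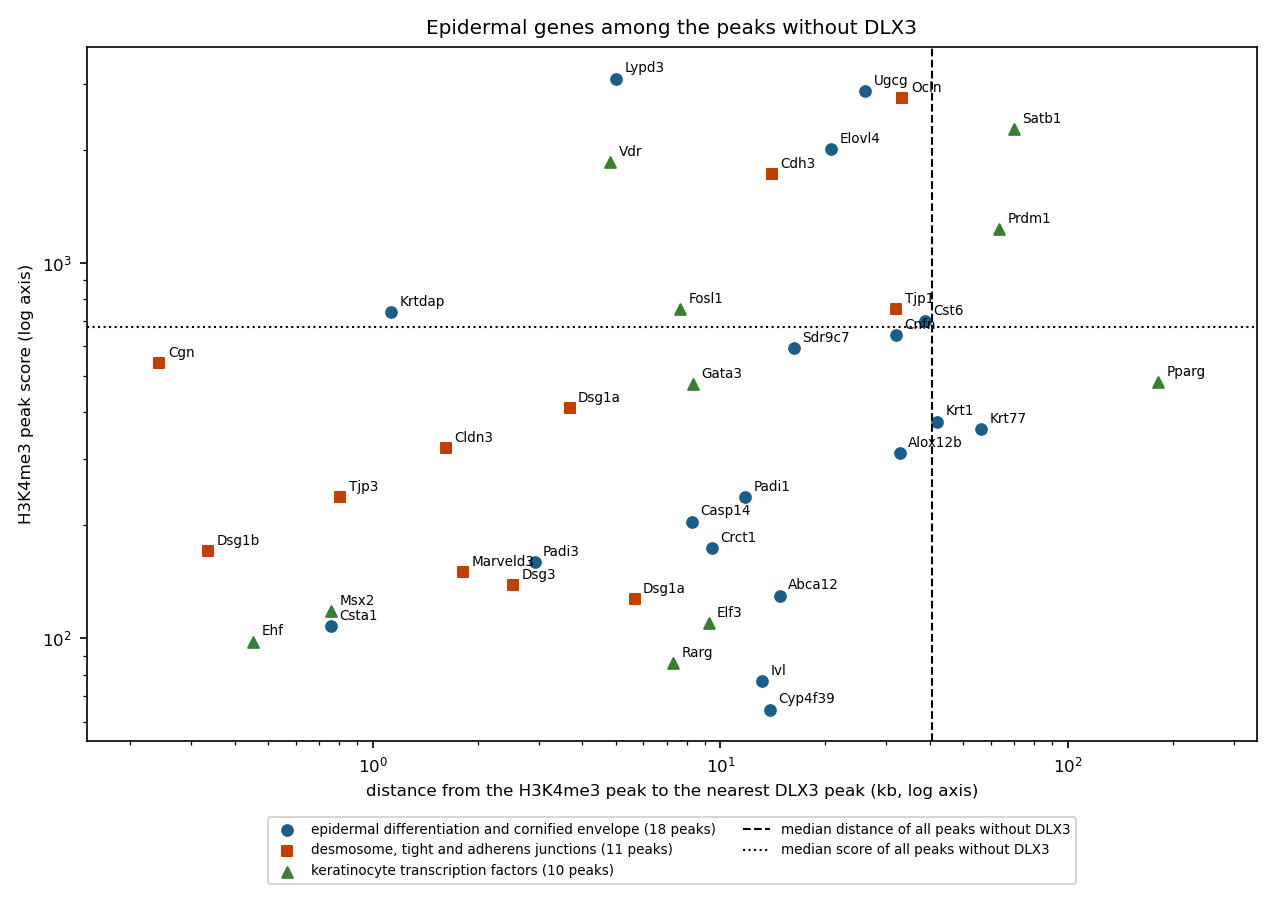
H3K4me3 score (vertical, log axis) against the distance to the nearest DLX3 peak in kb (horizontal, log axis) for 39 of the 40 peaks without DLX3 of the epidermal differentiation, junction and keratinocyte transcription factor lists. The dashed and dotted lines are the medians of all 5509 peaks, 40.6 kb and 676. All 11 junction peaks lie left of the dashed line, with a median of 2.53 kb.

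For most peaks without DLX3 no DLX3 peak was called over the gene or close to it. The distance to the nearest DLX3 peak had a median of 40638 bp (14582 to 101089). It was within 1 kb for 118 peaks (2.14%), within 5 kb for 524 (9.51%), within 20 kb for 1726 (31.3%), and beyond 100 kb for 1390 (25.2%). No DLX3 peak lay over the gene or within 5 kb of it for 3865 peaks (70.2%, 68.9 to 71.4). Stronger peaks lay closer: the median was 53698 bp in the weakest score class and 30902 bp in the strongest.

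Among peaks at or above the median score, the 10 farthest from DLX3 lay megabases from it, and 9 of them are given here. Pcdh9, a protocadherin, was 5284172 bp away, Dsel 3900526 bp, Hmgn5, a nucleosome-binding protein, 2967287 bp and Brwd3 2788291 bp. Tmtc2 followed at 2586098 bp, Epha7, an ephrin receptor, at 2465094 bp, Parp8 at 1932694 bp, AW146154 at 1812210 bp and Cadm2, an adhesion molecule, at 1804234 bp. The scores of the 9 were 767.26 for Pcdh9 to 1641.17 for Brwd3. At the other end, Vamp2, a vesicle fusion protein with a score of 2920.53, lay 510 bp from a DLX3 peak.

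The peaks sat on gene starts and leaned into the gene. Where the table gave a start, it lay inside the peak for 3846 of 4280 peaks without DLX3 (89.9%, 88.9 to 90.7), against 2780 of 2904 with DLX3 (95.7%, 94.9 to 96.4). From the start, peaks without DLX3 reached a median of 712 bp upstream and 1254 bp downstream, against 882 bp and 1542 bp with DLX3. They reached further downstream than upstream in 85.9% of peaks, against 89.3%. For 325 peaks without DLX3 (7.59%) the table's start lay elsewhere, and these were weak, with a median score of 213, against 749 where the start lay inside. The span of the genes had a median of 27.2 kb without DLX3 and 27.4 kb with it.

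For some lists a promoter window was found for at least 80% of the peaks. These lists could be described, and the motifs given were picked after the values were seen. Only windows with the start in the peak were counted. They numbered 20 for 27 translation factor peaks and 51 for 70 small GTPase regulator peaks. Windows with the start in a peak without DLX3 held the ETS motif in 55% of 20 translation factor genes and 42.3% of 26 spliceosome genes, against 11.6% of all windows. Over the 15 lists described in this way the ETS share had a median of 22.6% and a low of 3.92% in the 51 windows of the small GTPase regulators. The CCAAT box was in 69.7% of 33 mitotic genes and 51.2% of 168 zinc finger genes, against 38.2%. The 69.7% was the highest of the 15 lists, which had a median of 45.5% and a low of 25.5%. The E-box was in 31.8% of 22 ribosome biogenesis genes, against 7.84%. That was also the highest of the 15 lists, whose median was 9.09% and whose low was 0%. The ratio of observed to expected CpG had a median of 0.877 in the mitotic genes, 0.827 in the spliceosome and 0.610 in the zinc finger genes, against 0.567 over all windows. Over the 15 lists these medians ran from 0.603 to 0.891, with a middle value of 0.792. All windows include genes without H3K4me3, so these shares do not compare peaks without DLX3 with peaks that carry it.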

How the data were processed

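Per the submitters' processing notes, Bowtie 1.1.2, MACS 1.4.2 and HOMER were used with genome build mm10; their roles, settings and control were not given in the sources used here. In all, the authors deposited 1 peak list for DLX3 and 1 for H3K4me3, each with a score per peak (DLX3 50.01 to 3100, H3K4me3 50.0 to 3233.06), and nothing was pooled. The deposited scores are the authors' own and were used only to describe and rank peaks within a list. Read depth is unknown, since the lists hold no counts. IgG was not analysed here.

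Positions count from 1. Genes came from the RefSeq table of GRCm38.p6 (49997 genes, 21900 protein-coding), with spans and no exons, so exonic, intronic and UTR parts of a peak were not told apart. DLX3 was present when it shared at least 1 bp. Shares carry 95% Wilson intervals. Genes were sorted into 40 function and 7 marker lists by symbol, mostly by pattern, so that a list can hold genes of another function (Gpr107 and Cd81, for example). The symbols Krt85 and Trdc matched no gene. Matched shares were averaged over 5 by 5 classes of width and score, with the list's own peaks included. In all, 2301 of the 5410 genes (42.5%) were in a function list, 97 genes had more than 1 peak without DLX3, and 64 also had a single-gene peak with DLX3.

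Members and lists were chosen with earlier results of these data known. Genes named are the top 3 by score of a list, the 10 farthest from DLX3 at or above the median score, the 3 on either side of the width limit, and Krt1, Krt2, Krt10, Krt5, Krt14, Lor, Flg, Ivl, Dlx3 and Trp63. Members of the 3 epidermal lists, of the marker lists and of families were named after values were seen. A few genes that these rules name are not reported here. Overlap code was tested on simulated data. Alternatives changed the overlap, the score thresholds, the extension, the gene end, the width limit and the chromosomes used. Python 3.11.15, numpy 2.4.6, pandas 2.3.3, scipy 1.17.1 and matplotlib 3.10.9 were used.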

Additional observations from a re-analysis of the deposited data

How the results depend on the processing

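The count of 5509 peaks fell to 2338 when H3K4me3 peaks under the median score were dropped. The share without DLX3, 60.4%, became 59.2% when DLX3 within 1 kb counted as present, 76.6% with DLX3 peaks at or above their median score, 44.0% with H3K4me3 peaks at or above theirs, 59.3% with no extension, 62.1% with 5 kb, 58.9% with gene starts alone, 64.9% under 3000 bp and 58.3% with no width limit. The median score, 676, became 823 with the upper DLX3 peaks, 1388 with the upper H3K4me3 peaks, 731 with no extension, 577 with 5 kb and 579 under 3000 bp. The median width, 1969 bp, became 2047, 2442, 2000, 1901 and 1864 bp under the same settings in that order. Dropping peaks by score or width changes the share by its construction, since both move with DLX3.

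Of the function lists, 8 lay over 10 points above the share of all peaks and 16 over 10 points below. The number below became 8 with the upper H3K4me3 peaks, 6 against peaks of the same score and 6 against peaks of the same width and score. Of these lists, 7 of 8 above and 16 of 16 below kept their direction in all 13 settings. Motile cilium genes turned to 6.5 points below (-6.5) with the upper H3K4me3 peaks, -1.7 at the same score and -2.3 at the same width and score. Basal keratinocyte markers turned to 13.4 points above with the upper DLX3 peaks and 3.6 above with gene starts alone; the cause was not tested. Of 596 list values, 486 counted as unchanged, 105 as moved, and 5, of lists over 10 points from all peaks, changed sign. Unchanged meant a share within the interval of the list. In the settings matched on width or score, the difference could instead shift by up to the distance from the interval's midpoint to its end.

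Settings matched on score, matched on width and score, or without chromosomes X and Y were chosen after seeing the data. The planned comparison of promoter sequence was not run, since windows covered 77.7% of the peaks without DLX3. No paired analysis was possible because each antibody has 1 library and no result comes from a test. Depth is unknown, so what it limits was not measured.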

Other observations

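Chromosome X carried the peaks without DLX3 most often of the chromosomes with more than 4 single-gene peaks. There, 261 of 311 narrow single-gene peaks (83.9%, 79.4 to 87.6) were without DLX3, against 75.5% for peaks of the same width and score, and X had 153 DLX3 peaks in all. On the autosomes the share ran from 52.8% on chromosome 5 to 67.5% on chromosome 12.

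By the letters a gene symbol starts with, taken after the data were seen, the families with 12 or more single-gene peaks ranged from 25 of 25 without DLX3 for Col, 12 of 12 for Fgf and 12 of 12 for Nkx to 3 of 12 for Nup, the nuclear pore proteins, and 3 of 12 for Psmd, subunits of the proteasome cap. Mediator genes (Med) were without it at 7 of 21 (33.3%, 17.2 to 54.6), against 50.4% at the same width and score. Ubiquitin-conjugating and related Ube genes were without it at 12 of 31 (38.7%, 23.7 to 56.2), against 44.5%. Genes with provisional symbols (Gm, Rik, LOC and clone names) were without it at 151 of 199 (75.9%, 69.5 to 81.3), against 69.7%, with a median score of 484. For Nup, Psmd, Med, Ube and the provisional symbols the matched share lay inside the interval.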
